A study of Homo sapiens with 6 samples.

Results

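This account covers the genes of ACTH, cAMP and protein kinase A (PKA) signalling in H295R cells. H295R is a human line from an adrenocortical carcinoma and secretes steroid hormones. The genes were chosen by symbol: the adenylyl cyclases (ADCY), the cyclic nucleotide phosphodiesterases (PDE), the catalytic and regulatory subunits of PKA (PRKAC, PRKAR), the A-kinase anchoring proteins (AKAP), and the ACTH receptor MC2R with MRAP and MRAP2, GNAS and the GNAI genes, CREB1, CREM, the CRTC coactivators and RAPGEF3. Members had to have an array row that names exactly 1 gene. That gave 69 genes on 79 rows, of 33616 genes with such rows among 135750 rows on the array. Of the 69, 3 (AKAP8P1, AKAP17BP and PRKAR1AP) are pseudogenes. The other 66 were taken by symbol and not all act on cAMP, the cGMP-specific phosphodiesterases and PDE6D being examples. A further 5 rows that join the symbol of such a gene to another symbol were not used. ATF1, RAPGEF4, ADCY6, AKAP13 and AKAP17A are not analysed here, so the cyclase and AKAP families are not complete.

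The treated group was H295R cells kept for 24 h with 5 µM CX-4945, and the control group was H295R cells kept for 24 h with DMSO, its solvent. Each group had 3 arrays of biotin-labelled RNA. CX-4945 (silmitasertib) is an inhibitor of protein kinase CK2. H295R is 1 cell line, and the labels do not say that replicates were separate cultures, so the spread behind each p-value is that between these samples and may be technical.

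In the adrenal cortex ACTH binds the receptor MC2R, which reaches the cell surface only with the accessory protein MRAP. The receptor activates the stimulatory G protein encoded by GNAS, adenylyl cyclases make cAMP, and cAMP frees the catalytic subunits of PKA from their regulatory subunits. PKA then phosphorylates CREB-type transcription factors and proteins that deliver cholesterol to steroid synthesis, while phosphodiesterases break cAMP down and AKAPs tether PKA in place. Germline or somatic defects of GNAS, PRKAR1A, PRKACA, PDE11A and PDE8B are known in adrenocortical hyperplasia or adenomas. H295R cells are known to answer ACTH only weakly and are usually stimulated with agents that raise cAMP directly.

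Median intensities over all rows were 45.8 to 46.5 on the CX-4945 arrays and 40.7 to 43.1 on the DMSO arrays. CX-4945 replicate 2 correlated least with its group across genes, at r = 0.988 and 0.990. A background level was taken from 400 olfactory receptor genes, as the 95th percentile of their mean log2 intensity, 6.38. Of 10 measured adrenocortical markers, 8 lay above this level in both groups (NR5A1, STAR, CYP11A1, CYP17A1, HSD3B2, SCARB1, GATA6 and DLK1), while MC2R and INHA lay below it in both. Above it among markers of other cell types were CHGB in 6 medullary genes, COL1A1, COL1A2 and DCN in 6 fibroblast genes, VWF in 5 endothelial genes, and CD3E in both groups and CD14 in CX-4945 only in 5 immune genes. The part of cell composition in the results was not tested. Intensities of different rows are not comparable as amounts, so each gene was tested only against itself. Ratios of 2 genes within arrays and sums over markers, given below, are compared only between groups.

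More genes of the pathway were lower than higher in CX-4945 against DMSO, with 20 of 69 lower, 3 higher and 46 not called. A call means an adjusted p under 0.05 in a limma fit over all 33616 genes, in which 12.5% of genes were lower and 10.3% higher. The falls took in 9 of 22 PDE genes, both broadly used catalytic subunits of PKA, 2 regulatory subunits, 3 AKAPs, 1 adenylyl cyclase, GNAI2, MRAP and CREM. Some of these act for the signal, and others, such as PDE genes, regulatory subunits and GNAI2, act against it. The counts therefore give no direction of pathway activity, which was not measured. The rises were those of GNAI1, PRKAR2B and AKAP2. At least 2-fold lower were 13 of the 69 (7.01% of all genes) and at least 2-fold higher 2 (4.34%). In 33 of the 69 genes the 3 CX-4945 values lay on one side of the 3 DMSO values, against 36.0% of all genes. All 23 called genes were among the 33, which passing the test makes likely in itself. The median log2 difference was -0.20 over the 69 genes and 0.02 over all genes tested. A lower value in bulk RNA cannot tell fewer cells that make an RNA apart from less of it per cell. Of the 69 genes, 26 lay below background in both groups, where little can be seen. Among the 42 genes whose mean over all arrays lay above background, 17 were lower and 3 higher, and of all genes chosen in that way 21.9% were lower and 16.9% higher.

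**Figure D1:**
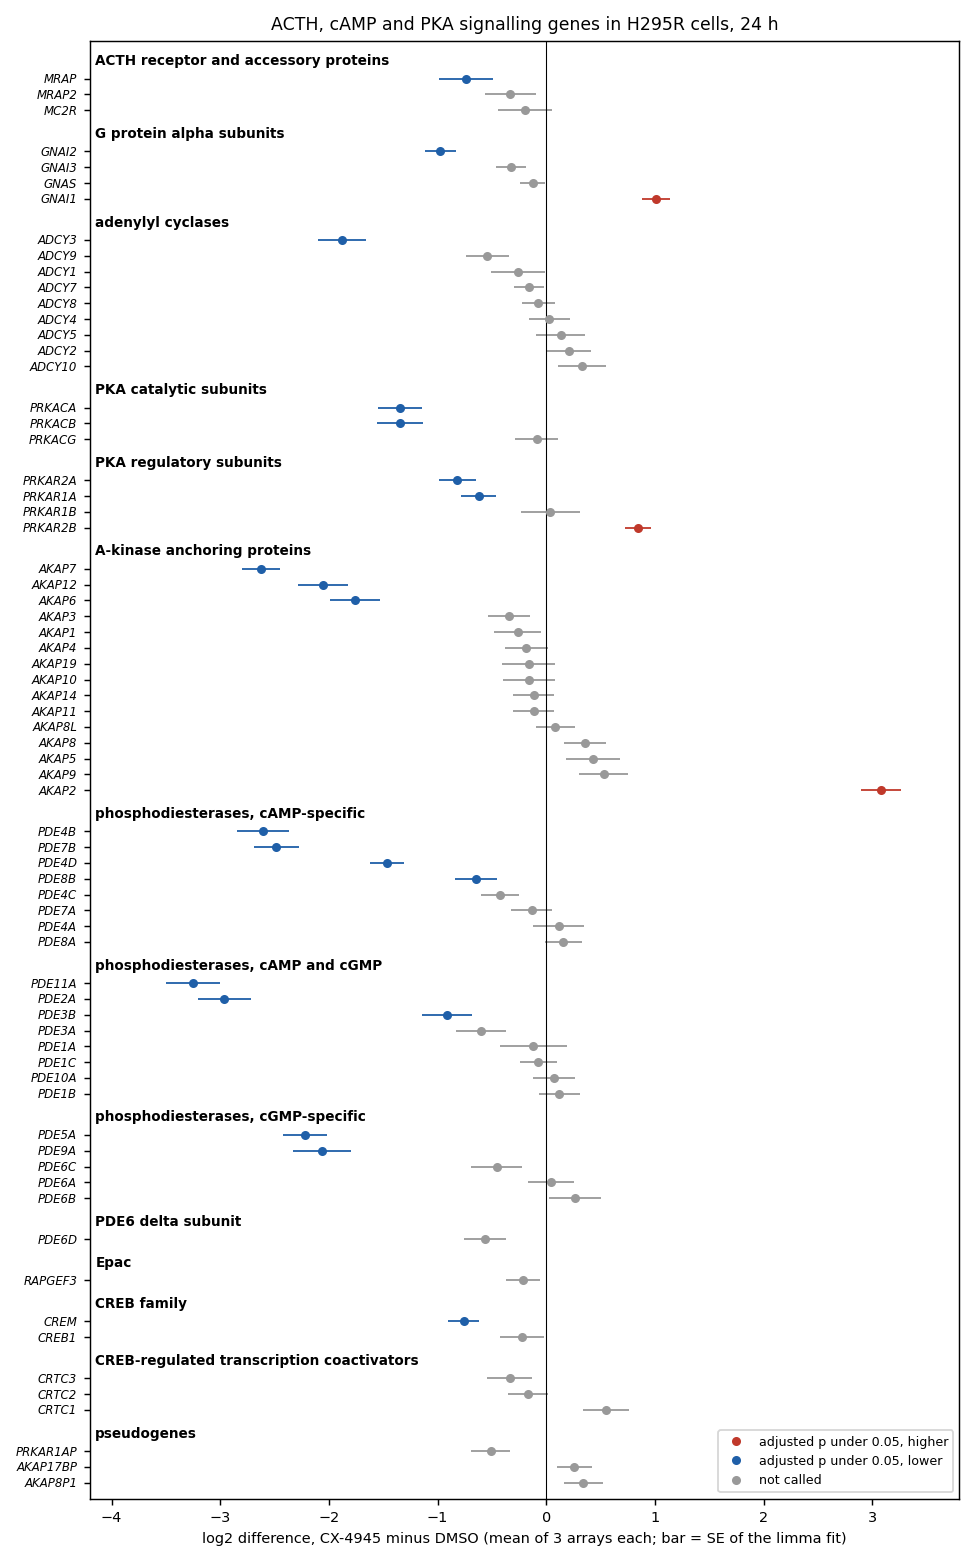
Log2 difference, CX-4945 minus DMSO, of each of the 69 genes, grouped by role; points are differences of the means of 3 arrays per group and bars are the SE of the limma fit. Called genes are coloured: 20 lie left of zero (lower) and 3 right of it (higher), with PDE11A at -3.25 and AKAP2 at 3.08 as the ends.

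The promoters of 3 of the genes that fell hold the full cAMP response element (CRE), the site that CREB and CREM bind, and are printed here because they carry that element near an annotated start of called genes of this pathway. The sequences are from the RefSeq annotation on GRCh38.p14, each running from 250 bases before to 50 bases after an annotated gene start, 5′ to 3′ on the gene's strand, which is the plus strand for all 3. The PDE7B window is chr6:135851451-135851750, the CREM window chr10:35195652-35195951 and the PRKAR1A window chr17:68512180-68512479, with the CRE in capitals.
PDE7B: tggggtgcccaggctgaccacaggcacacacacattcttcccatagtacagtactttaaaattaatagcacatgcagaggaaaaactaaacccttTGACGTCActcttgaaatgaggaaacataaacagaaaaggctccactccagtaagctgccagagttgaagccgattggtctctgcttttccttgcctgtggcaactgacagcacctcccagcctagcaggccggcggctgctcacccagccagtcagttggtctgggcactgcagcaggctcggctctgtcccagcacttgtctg
CREM: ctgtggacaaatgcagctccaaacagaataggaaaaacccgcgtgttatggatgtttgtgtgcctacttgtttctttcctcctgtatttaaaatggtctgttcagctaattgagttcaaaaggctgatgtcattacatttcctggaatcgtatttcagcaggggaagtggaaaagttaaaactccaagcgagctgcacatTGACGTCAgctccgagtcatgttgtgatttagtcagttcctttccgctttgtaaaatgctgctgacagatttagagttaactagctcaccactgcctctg
PRKAR1A: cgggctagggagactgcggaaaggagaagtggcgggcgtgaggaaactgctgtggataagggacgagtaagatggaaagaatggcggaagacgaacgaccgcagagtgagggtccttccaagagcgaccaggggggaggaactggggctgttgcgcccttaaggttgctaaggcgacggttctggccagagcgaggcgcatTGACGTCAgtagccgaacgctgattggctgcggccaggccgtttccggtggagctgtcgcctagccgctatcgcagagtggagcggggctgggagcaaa
The CRE covers bases 96 to 103 of the PDE7B window, 201 to 208 of the CREM window and 202 to 209 of the PRKAR1A window. In all 3 printed windows it lies before the start. CREM and PRKAR1A each have a second, overlapping window, from an annotated start further upstream (chr10:35195600-35195899 and chr17:68512129-68512428), in which the same CRE covers bases 253 to 260 and so lies just after the start. Searched as TGACGTCA, which reads the same on both strands, the CRE was found for 4 of the 55 genes with promoters in the table, the fourth being PDE4A, which was not called. That is 7.27% of these genes, against 2.25% of all 27305 genes with promoters. By window it was found in 6 of 142 (4.23%), 4 of them the overlapping pairs of CREM and PRKAR1A, against 649 of 35116 windows of all genes (1.85%). The core of the CRE, TGACG or CGTCA on the other strand, which overlaps the full site, was in 26.1% of the members' windows and 24.6% of all windows, and by gene in 45.5% of the members and 28.4% of all genes. The members have more windows per gene than all genes do, which raises a share counted by gene. A match is a string of letters and no evidence of binding, and the array rows do not say from which start an RNA was made.

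At the top of the pathway the ACTH receptor itself was hardly measurable. MC2R had intensities of 71.5, 50.2 and 45.0 with CX-4945 and 64.1, 78.5 and 48.1 with DMSO. The 2 groups overlapped, both means lay below background, and the log2 difference was -0.20 ± 0.25 (SE; adjusted p = 0.664). MRAP, which carries the receptor to the surface, had 77.9, 139 and 86.2 with CX-4945 and 185, 142 and 165 with DMSO. It was 1.67-fold lower (log2 difference -0.74 ± 0.25, adjusted p = 0.048), with CX-4945 replicate 2 just under the lowest DMSO array. MRAP lost its call in 8 of the 17 alternatives (up to adjusted p = 0.196), the replicate block (0.0531) and every alternative without 1 of the DMSO arrays among them. MRAP2, a relative that also binds melanocortin receptors, lay below background in both groups (log2 difference -0.33).

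Among the alpha subunits of G proteins, the stimulatory one did not pass the test and 2 inhibitory ones moved in opposite directions. GNAS had 81296, 77147 and 68101 with CX-4945 and 89096, 81245 and 76774 with DMSO, overlapping values with a log2 difference of -0.13 ± 0.11 (adjusted p = 0.516). The GNAS locus makes several transcripts, which its row does not tell apart. GNAI1, an inhibitor of adenylyl cyclase, had 49821, 50177 and 53611 with CX-4945 against 26512, 28122 and 22103 with DMSO, so that every treated array was higher. Its rise was 2.01-fold (log2 difference 1.01 ± 0.13, adjusted p = 8.34e-05). GNAI2, which acts on the same enzymes, had 25629, 32858 and 22943 with CX-4945 against 53598, 51487 and 53110.2 with DMSO. It fell 1.96-fold (log2 difference -0.97 ± 0.14, adjusted p = 2.54e-04), again with no overlap. GNAI3 differed by -0.32 ± 0.14 on the log2 scale (adjusted p = 0.128) and was not called, although its groups did not overlap. Within each array, log2 GNAI1 minus log2 GNAI2 was 0.96, 0.61 and 1.22 with CX-4945 and -1.02, -0.87 and -1.26 with DMSO, a change of 1.98. This pair and 2 others below were chosen after their values were seen, from genes called in opposite directions, so their ratios are a description with no test.

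Of 9 adenylyl cyclases, the enzymes that make cAMP, 1 was lower and none higher, against 12.5% and 10.3% of all genes. Below background in both groups were 6 of them. ADCY3 had 42.0, 49.4 and 38.3 with CX-4945 against 159, 196 and 127 with DMSO. It fell 3.68-fold (log2 difference -1.88 ± 0.22, adjusted p = 4.88e-05) to below background, and that floor bounds the measured size of the fall. ADCY9 (-0.54 ± 0.20, adjusted p = 0.0701) was not called, though its groups did not overlap and it passed in 5 of 17 alternatives. ADCY1, which calcium and calmodulin stimulate, also lay above background (log2 difference -0.26) and was not called. The others were ADCY2 (0.21), ADCY4 (0.03), ADCY5 (0.13), ADCY7 (-0.16), ADCY8 (-0.07) and the soluble cyclase ADCY10 (0.33), all below background.

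The subunits of PKA changed unequally, with both broadly used catalytic subunits lower and 1 regulatory subunit higher. PRKACA, the catalytic subunit alpha, had 2964, 5552 and 4029 with CX-4945 against 9522, 10801 and 10616 with DMSO. It fell 2.54-fold (log2 difference -1.35 ± 0.21, adjusted p = 3.81e-04), and its treated arrays spread more than its DMSO arrays. PRKACB, the catalytic subunit beta, had 3143, 1733 and 2826 with CX-4945 against 6381, 6956 and 5692 with DMSO. It fell 2.54-fold (log2 difference -1.35 ± 0.21, adjusted p = 5.32e-04). CX-4945 replicate 2 was the highest treated array for PRKACA and the lowest for PRKACB. Without variance moderation both calls were lost (adjusted p = 0.0543 and 0.0587). PRKACG, a testis form, lay below background (log2 difference -0.09).

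Of the regulatory subunits, which hold the catalytic ones inactive until cAMP binds, 2 fell, 1 rose and 1 was not called. The shares of all genes were 12.5% lower and 10.3% higher. PRKAR1A, whose loss causes Carney complex, had 4274, 3157 and 4210.3 with CX-4945 against 6144, 5942 and 5696 with DMSO. It fell 1.54-fold (log2 difference -0.62 ± 0.16, adjusted p = 0.0147). That call was lost without DMSO replicate 1, without DMSO replicate 2 and without moderation (adjusted p up to 0.0768). PRKAR2A was lower by -0.82 ± 0.17 on the log2 scale (adjusted p = 0.00343), with 1177, 1021 and 1278 with CX-4945 against 1886, 2072 and 2157 with DMSO. PRKAR2B, the type II beta subunit, had 44179.5, 39209.9 and 44194 with CX-4945 against 23192, 24189.6 and 23581 with DMSO. It rose 1.80-fold (log2 difference 0.84 ± 0.12, adjusted p = 1.84e-04), and its arrays were close together within each group. PRKAR1B varied widely within both groups (SD 0.47 with CX-4945 and 0.40 with DMSO on the log2 scale, n = 3 each) and gave a log2 difference of 0.04 ± 0.27.

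Within arrays, log2 PRKAR2B minus log2 PRKACA was 3.90, 2.82 and 3.46 with CX-4945 and 1.28, 1.16 and 1.15 with DMSO, a change of 2.19. Log2 PRKAR2B minus log2 PRKAR2A was 5.23, 5.26 and 5.11 with CX-4945 and 3.62, 3.55 and 3.45 with DMSO, a change of 1.66. Both ratios were higher on every CX-4945 array than on every DMSO array, which the opposite calls of the genes already fixed. They say nothing of the amount of either protein.

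**Figure D2:**
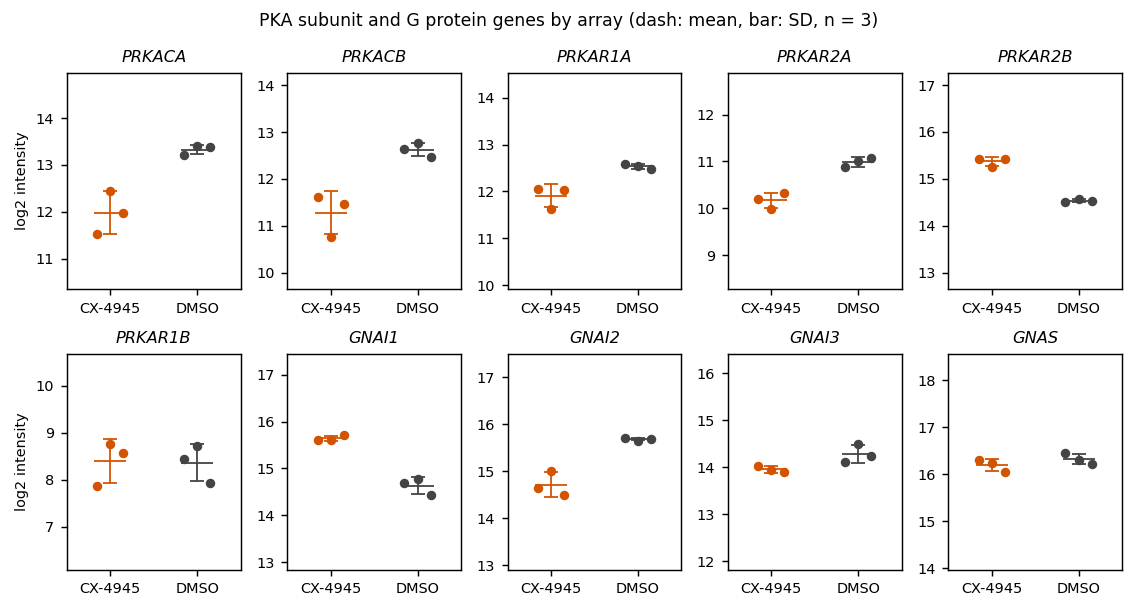
Log2 intensity of 6 PKA subunit genes and 4 G protein alpha subunit genes on each array, CX-4945 left and DMSO right; points are arrays, dashes means and bars SD (n = 3). Each panel spans the same number of log2 units. PRKAR2B and GNAI1 are higher on all 3 CX-4945 arrays, PRKACA, PRKACB, PRKAR1A, PRKAR2A and GNAI2 are lower on all 3, and GNAS and PRKAR1B overlap.

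The phosphodiesterases, which end the signal by hydrolysing cyclic nucleotides, are the largest family here and had the most falls. Of 22, 9 were lower and none higher, against 12.5% and 10.3% of all genes. Of the 7 PKA subunits 4 were lower. Among the 13 phosphodiesterases whose mean over all arrays lay above background, 7 were lower, against 21.9% of all genes chosen in that way. The median log2 difference of the 22 was -0.51, and -0.46 without PDE6D, which is no enzyme. Of the 22, 9 lay below background in both groups. Of the 8 that hydrolyse cAMP specifically, 4 fell. PDE4B had 91.3, 137 and 172 with CX-4945 against 896, 733 and 742 with DMSO, a fall of 6.09-fold (log2 difference -2.61 ± 0.24, adjusted p = 6.74e-06). PDE4D, the other large PDE4 signal, had 2381, 2032 and 1895 with CX-4945 against 5607, 6174 and 5603 with DMSO. It fell 2.77-fold (log2 difference -1.47 ± 0.16, adjusted p = 2.37e-05), and its treated and DMSO arrays were far apart. A dim second row of PDE4D differed by 0.29. PDE7B, whose promoter CRE is printed above, had 579.5, 989 and 824 with CX-4945 against 4022, 4749 and 4316 with DMSO. It fell 5.59-fold (log2 difference -2.48 ± 0.21, adjusted p = 2.83e-06).

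Of the pair of high-affinity cAMP phosphodiesterases that limit steroid output in adrenal and Leydig cells of mice, PDE8A was not called and PDE8B was measured near the floor. PDE8A had 1651, 1973 and 1809 with CX-4945 and 1419.7, 1775 and 1693 with DMSO, overlapping groups with a log2 difference of 0.16 ± 0.17 (adjusted p = 0.611). PDE8B was lower by -0.65 ± 0.19 (adjusted p = 0.0298), but both means lay below background and 5 of 15 alternatives lost the call (adjusted p up to 0.122). PDE7A (-0.14), PDE4A (0.11) and PDE4C (-0.43, below background) were not called.

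Among 8 phosphodiesterases that hydrolyse both cAMP and cGMP, 3 fell and none rose, against 12.5% and 10.3% of all genes. Of these, PDE11A and PDE2A had the lowest measured log2 differences of the 22. PDE11A, in which inactivating variants are known from adrenocortical hyperplasia, had 34.6, 31.4 and 29.1 with CX-4945 against 343, 383 and 206 with DMSO. Its measured fall was 9.49-fold (log2 difference -3.25 ± 0.25, adjusted p = 1.51e-06), to below background. PDE2A, which cGMP stimulates to break down cAMP, had 109, 140.3 and 135 with CX-4945 against 954, 1389.6 and 737 with DMSO. It fell 7.79-fold (log2 difference -2.96 ± 0.24, adjusted p = 2.56e-06) and stayed above background. PDE3B, which cGMP inhibits, was lower by -0.91 ± 0.23 (adjusted p = 0.012), below background in both groups. Its call was lost with the mean of its 2 rows (log2 difference -0.41, adjusted p = 0.235), without CX-4945 replicate 1, without DMSO replicate 3 and without moderation. PDE3A (-0.60), PDE1A (-0.12), PDE1B (0.12) and PDE1C (-0.07), all below background, were not called, though PDE3A passed in 3 of 15 alternatives. PDE10A was not called on its brighter row (0.07), but its second row was lower by -0.82 ± 0.20 (SE; adjusted p = 0.0113 in a fit over all 36176 rows with 1 symbol), so its 2 rows disagreed.

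Of 5 cGMP-specific phosphodiesterases 2 fell and none rose, against 12.5% and 10.3% of all genes. PDE5A, the target of sildenafil, had 108, 122 and 104 with CX-4945 against 633, 455 and 483 with DMSO. It fell 4.67-fold (log2 difference -2.22 ± 0.20, adjusted p = 6.19e-06). PDE9A had 111, 174 and 78.5 with CX-4945 against 463, 521 and 461 with DMSO. It fell 4.19-fold (log2 difference -2.07 ± 0.27, adjusted p = 9.69e-05), with treated arrays wider apart than DMSO arrays. Its CX-4945 replicate 3 lay below background, at a log2 intensity of 6.30. The photoreceptor genes PDE6A (0.04) and PDE6B (0.26), both below background, and PDE6C (-0.46) were not called. PDE6D, which in spite of its name is a carrier of prenylated proteins and no enzyme, differed by -0.56 ± 0.20 (adjusted p = 0.0569) and passed in 8 of 17 alternatives.

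**Figure D3:**
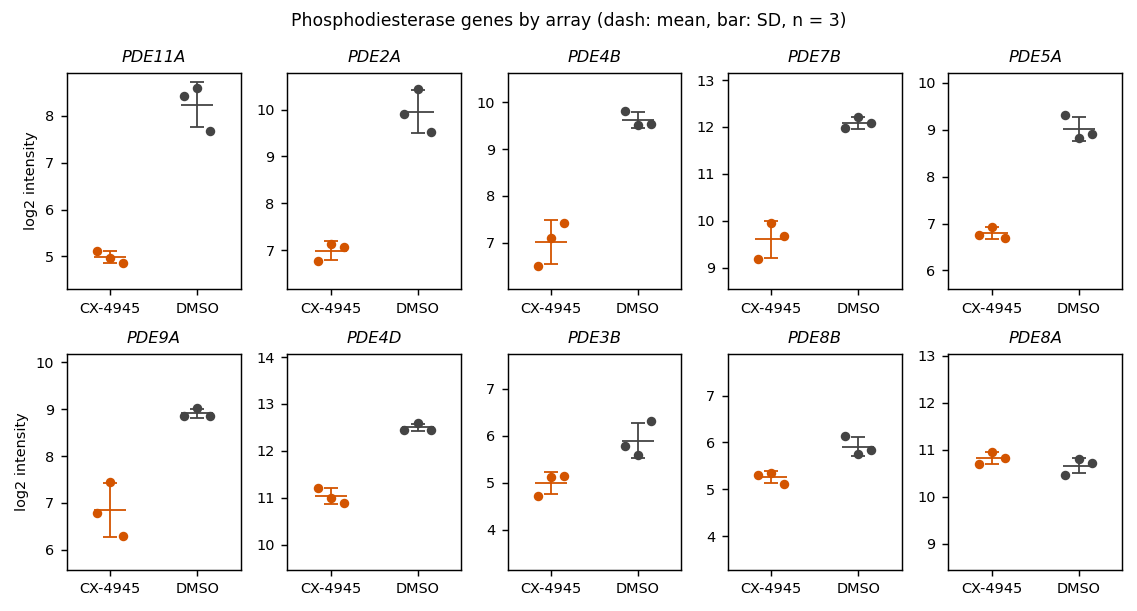
Log2 intensity of the 9 phosphodiesterase genes that fell and of PDE8A on each array, CX-4945 left and DMSO right; points are arrays, dashes means and bars SD (n = 3). Each panel spans the same number of log2 units. The 3 CX-4945 arrays lie below the 3 DMSO arrays for every gene shown except PDE8A. Below a log2 intensity of 6.38 lie the CX-4945 arrays of PDE11A, CX-4945 replicate 3 of PDE9A, and all arrays of both groups of PDE3B and PDE8B.

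Of 15 anchoring proteins, which place PKA beside its substrates, 3 were lower, 1 was higher and 11 were not called. Over all genes 12.5% were lower and 10.3% higher. Of the 15, 11 lay above background in a group, and of genes with a mean above background 21.9% were lower and 16.9% higher. AKAP7, a membrane-bound anchor studied in heart muscle, had 485, 415 and 438 with CX-4945 against 3084, 2494 and 2677 with DMSO. It fell 6.16-fold (log2 difference -2.62 ± 0.17, adjusted p = 4.68e-07). AKAP12, or gravin, a scaffold for PKA and protein kinase C, had 899.8, 461 and 656 with CX-4945 against 2773, 2772 and 2543 with DMSO. It fell 4.15-fold (log2 difference -2.05 ± 0.23, adjusted p = 2.92e-05). AKAP6, an anchor at the nuclear envelope of muscle cells, had 69.5, 43.1 and 48.9 with CX-4945 against 179, 202 and 158 with DMSO. Its measured fall was 3.38-fold (log2 difference -1.76 ± 0.23, adjusted p = 1.05e-04), to below background.

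AKAP2 was the highest rise among the 69 genes. Its row had 1720.3, 1757 and 2014 with CX-4945 against 232, 236 and 185 with DMSO, a rise of 8.45-fold (log2 difference 3.08 ± 0.19, adjusted p = 2.15e-07). RefSeq now joins AKAP2 and PALM2 into 1 gene, PALM2AKAP2, and the array has a row for each name. The PALM2 row had 1562, 678 and 1216 with CX-4945 against 66.1, 62.6 and 39.0 with DMSO (log2 difference 4.32, limited by a DMSO mean below background). The PALM2AKAP2 row had 3589, 3332 and 2955 with CX-4945 against 209, 116 and 111 with DMSO (4.56). The 3 rows thus pointed the same way at 1 locus and do not count as 3 genes. The anchors not called were AKAP1 of mitochondria (-0.26), AKAP5 (0.43), the nuclear anchor AKAP8 (0.36), AKAP8L (0.08), the Golgi and centrosome anchor AKAP9 (0.53), AKAP10 (-0.16), AKAP11 (-0.12) and, below background, AKAP14 (-0.12), AKAP19 (-0.16) and the sperm proteins AKAP3 (-0.34) and AKAP4 (-0.18). AKAP9 passed without CX-4945 replicate 2 (log2 difference 0.79, adjusted p = 0.00217).

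At the transcriptional end, CREM was lower and CREB1 did not pass. CREM, which encodes activators and the cAMP-induced repressor ICER, had 10145, 13410.4 and 10823 with CX-4945 against 19957, 20173 and 17803 with DMSO. It fell 1.69-fold (log2 difference -0.76 ± 0.15, adjusted p = 0.00198), and its row does not tell activator and repressor forms apart. CREB1 had 659, 921 and 677 with CX-4945 and 733, 944 and 953 with DMSO, overlapping groups with a log2 difference of -0.23 ± 0.20 (adjusted p = 0.507). The coactivators that PKA signalling lets into the nucleus, CRTC1 (0.55), CRTC2 (-0.17) and CRTC3 (-0.34), were not called. CRTC3 passed without CX-4945 replicate 2 (log2 difference -0.56, adjusted p = 0.0155) and CRTC1 without CX-4945 replicate 3 (0.74, adjusted p = 0.0379). RAPGEF3, or Epac, the cAMP-activated exchange factor for Rap, lay below background (-0.21). The pseudogenes AKAP8P1 (0.34), AKAP17BP (0.25) and PRKAR1AP (-0.51) were below background and not called, and PRKAR1AP may share signal with PRKAR1A.

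Genes around the pathway were counted from lists chosen with earlier results of these data known. The share to set beside each count is that over all genes, 12.5% lower and 10.3% higher. Of genes whose mean over all arrays lay above background, 21.9% were lower and 16.9% higher, a nearer share for lists mostly above background. Above it in a group were 12 of 16 PKA regulators, 18 of 19 further G protein subunits and 18 of 23 CREB kinases and related genes. So were 24 of 33 CREB targets and 12 of 13 ACTH-responsive genes, but 9 of 22 receptor genes and 8 of 16 effectors. Of 16 measured PKA inhibitor peptides and further PKA-binding proteins, 4 were higher and 5 lower (median log2 difference -0.05). Of its 3 inhibitor peptides 1 rose and 1 fell, and PKIB lay below background in both groups (log2 difference -0.08, adjusted p = 0.853). PKIA, a peptide that blocks free catalytic subunits, had 5207, 6010.4 and 5775 with CX-4945 against 1442, 1134 and 1195 with DMSO, a rise of 4.52-fold (log2 difference 2.18 ± 0.17, adjusted p = 1.43e-06). PKIG, its relative, had 114, 207 and 176 with CX-4945 against 727, 689 and 729 with DMSO, a fall of 4.45-fold (log2 difference -2.15 ± 0.23, adjusted p = 2.27e-05). CMYA5, a muscle PKA anchor, rose 18.2-fold as measured, with a DMSO level below background. LRBA, a relative of the PKA-binding neurobeachin, fell 2.75-fold.

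Of 19 further G protein subunits, 12 were lower and 1 higher, with a median log2 difference of -0.72. GNAL, which like GNAS stimulates adenylyl cyclase, had 216, 407 and 215 with CX-4945 against 2195, 2916 and 2331 with DMSO, a fall of 9.24-fold (log2 difference -3.21 ± 0.25, adjusted p = 1.87e-06). GNAZ, which inhibits it, had 303, 675 and 479 with CX-4945 against 4329, 6336 and 5579 with DMSO, a fall of 11.6-fold (log2 difference -3.54 ± 0.27, adjusted p = 1.31e-06). GNAQ, which activates phospholipase C, fell 4.63-fold and the gamma subunit gene GNG2 6.19-fold. Over the 17 alternatives the log2 difference of GNAQ ran from -2.34 to -0.89, with its call kept in each. Its highest adjusted p, 0.00695 in the limma fit, came with the mean of its rows. Of 22 other cAMP-coupled receptors and genes of receptor desensitisation, 2 were higher and 2 lower, against 10.3% and 12.5% of all genes. The VIP receptor VIPR1 fell 4.45-fold and the receptor kinase GRK3 rose 2.29-fold. The prostaglandin receptor PTGER2 was lower by -1.13 ± 0.20, to below background. The adenosine receptor ADORA2B differed by 0.65 ± 0.17, below background in both groups (adjusted p = 0.0121). GRK3 lost its call without moderation (adjusted p = 0.0525) and ADORA2B without DMSO replicate 3 (0.0548).

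Of 16 other cAMP effectors and exporters, 2 were higher and 4 lower, against 10.3% and 12.5% of all genes. The cAMP-binding Popeye protein gene POPDC2 had 790.2, 1036 and 1130.3 with CX-4945 against 113, 126 and 133 with DMSO, a rise of 7.88-fold (log2 difference 2.98 ± 0.20, adjusted p = 5.44e-07). ABCC5, which exports cyclic nucleotides, fell 4.74-fold. The cyclic nucleotide-modulated channel gene HCN2 fell 2.53-fold, a call lost without moderation (adjusted p = 0.103). HCN3 was called lower while both its means lay below background. Of 23 CREB kinases, phosphatases, relatives and coactivators, 5 were higher and 6 lower. PPP1CC, a catalytic subunit of the phosphatase that acts on CREB, fell 3.55-fold and the calcineurin subunit PPP3CA, which acts on CRTC proteins, 4.72-fold. CREB5, which binds CRE sites, rose 9.59-fold, and CREB3, a factor anchored in the endoplasmic reticulum, 3.46-fold.

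Genes known as targets of this pathway went both ways, beside 10.3% higher and 12.5% lower over all genes. Of 33 CREB target genes, 14 were higher and 8 lower (median log2 difference 0.23), and 3 of them, PDE4B, PDE4D and CREM, are among the 69 genes and fell. EGR1 (5.21 ± 0.20), CGA (5.80 ± 0.23), CITED2 (3.92 ± 0.18) and NR4A2 (4.52 ± 0.21, with a DMSO mean below background) had the smallest adjusted p of the list and rose; many of its genes also answer to signals other than cAMP. Of 13 ACTH-responsive genes of steroid synthesis and cholesterol supply, 1 was higher and 9 lower (median log2 difference -1.37). CYP11A1 (-6.33 ± 0.20), CYP17A1 (-4.69 ± 0.22), SCARB1 (-1.94 ± 0.14) and LIPE (-2.40 ± 0.20, to below background) had the smallest adjusted p of that list and fell. Of the 10 adrenocortical markers 6 were lower, but these 6 are also in the ACTH-responsive list and are no separate result. MC2R, 1 of the 10, is also among the 69 genes. DLK1 (log2 difference -0.01) and GATA6 (-0.17) lay above background in both groups and were not called. The log2 intensities of the 10 markers summed to 99.5 to 103.3 on CX-4945 arrays against 118.7 to 120.6 on DMSO arrays. CYP11A1 and CYP17A1 had the largest falls in that sum. Among markers of other cell types, CD14 (log2 difference 1.68 ± 0.23, adjusted p = 1.54e-04), DCN (0.81 ± 0.19, adjusted p = 0.00879) and CD68 (0.77 ± 0.24, adjusted p = 0.0336) were called higher and CHGB (-1.52 ± 0.19, adjusted p = 8.33e-05) lower. The CD68 means lay below background in both groups and the CD14 mean in DMSO. The summed log2 intensity of the 5 immune genes was 30.3 to 31.5 on CX-4945 arrays against 27.9 to 29.4 on DMSO arrays. Of these 5, 3 lay below background in both groups, and 2 had negative log2 differences, CD3E (-0.41) and PTPRC (-0.16). For the 6 fibroblast genes the sum was 39.8 to 42.0 with CX-4945 and 41.0 to 42.9 with DMSO, and for the 5 endothelial genes 23.4 to 23.6 with CX-4945 and 22.5 to 24.6 with DMSO. The 6 medullary genes, 5 of them below background in both groups, summed to 28.5 to 29.4 with CX-4945 against 31.3 to 32.0 with DMSO. The part of these markers in the changes of the 69 genes was not tested.

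The count of called genes was recomputed under 17 alternatives of processing. Lower genes outnumbered higher ones in each of them, with 14 to 26 lower and 3 to 4 higher of the 69. The fewest calls were made without variance moderation and the most with equal array medians.

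**Figure D4:**
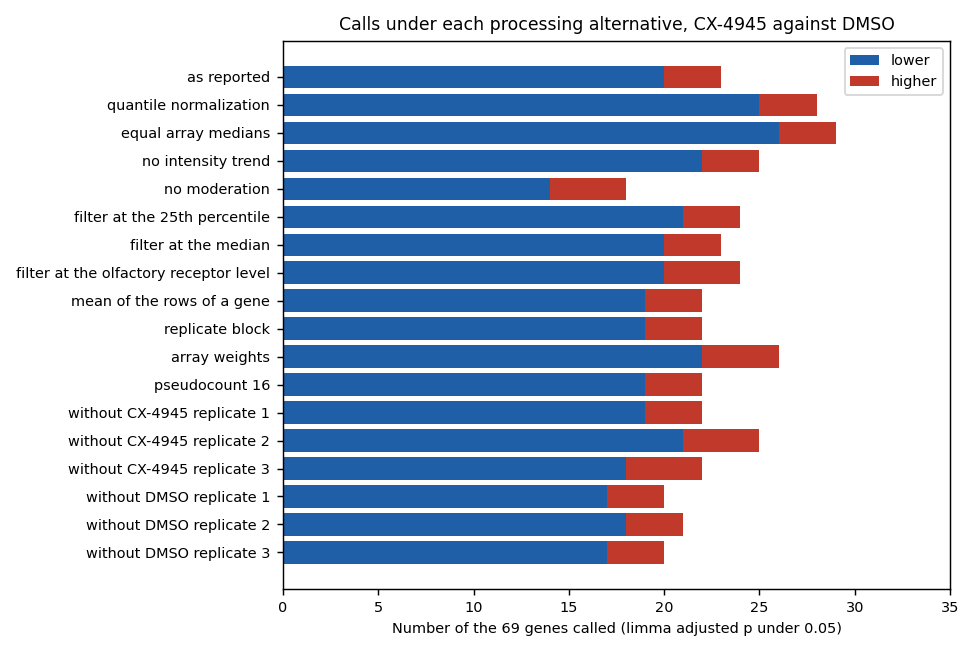
Number of the 69 genes called lower (blue) and higher (red) with CX-4945 as reported and under each alternative; the horizontal axis counts genes with a limma adjusted p under 0.05. As reported 20 were lower and 3 higher, and the lower count runs from 14 without moderation to 26 with equal array medians.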

How the data were processed

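RNA was measured on 6 whole-transcript arrays, 3 of cells with CX-4945 and 3 of cells with DMSO; groups and replicate numbers come from the sample titles. Affymetrix Expression Console was used on the arrays, per the submitters' processing notes. The sources used here do not give its version, background correction, normalization or genome build. The values deposited are linear intensities, 1 for each row of each array, from 6.41 to 919659, and were taken as normalized by the authors, so a fold may be compressed near background.

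The log2 of each intensity was taken with no pseudocount. A table of the platform's annotation gave 36176 rows 1 symbol and 1119 several; 98455 rows are unnamed here. The brightest row, by its mean over all arrays, stood for a gene, which mattered for 9 of the 69 genes. The members and gene lists were chosen with earlier results of these data known. Groups were compared with limma 3.58.1 in R 4.3.3 (lmFit and eBayes with an intensity trend, two-sided, Benjamini-Hochberg over 33616 genes, threshold 0.05, 4 residual degrees of freedom), with no filter on dim rows. Differences are CX-4945 minus DMSO with the SE of the fit. No p was adjusted over the members alone and no list was tested as a set. All 69 genes are named. Array values were given for called genes with at least a 2-fold change and for MC2R, MRAP, GNAS, PRKACA, PRKAR1A and CREB1. Values of GNAI2, PRKAR2A, PRKAR2B, PDE8A and CREM and of genes outside the 69 were added after seeing the data. Of each other list, up to 4 called genes with the smallest adjusted p were named. Gene starts and names come from RefSeq on GRCh38.p14. The set of promoters used here covered 55 of the 69 genes. Missing from that set, though most are RefSeq genes, were ADCY8, ADCY9, AKAP17BP, AKAP2, AKAP3, AKAP8L, AKAP8P1, CRTC2, MRAP, PDE3B, PDE7A, PDE9A, PRKACG and PRKAR1AP. The alternatives were a replicate block, array weights, quantile normalization, arrays set to equal medians, eBayes without the trend, no moderation, 3 filters on dim genes, averaging a gene's rows, a pseudocount of 16 and leaving out each array. For arrays, their number limits the precision. Plots were drawn with matplotlib 3.10.9.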

Additional observations from a re-analysis of the deposited data

How the results depend on the processing

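Of the 23 called genes, 17 were called in each of the 17 alternatives that tested them and none changed sign; the others were MRAP, PDE3B, PDE8B, PRKACA, PRKACB and PRKAR1A, whose calls were lost as given above. The number of lower genes among the 69 ranged from 14 without moderation to 26 with equal array medians, and that of higher genes from 3 to 4. Of 46 genes not called, 36 were called in no alternative. Among the others, PDE6D was called in 8 alternatives, ADCY9 in 5, and PDE3A and PRKAR1AP in 3 each. PDE4C, AKAP9 and CRTC1 were called in 2 each, and CRTC3, GNAI3 and AKAP8P1 in 1 each. Over all genes, 4259 were called without moderation (1692 higher and 2567 lower), against 7665 (3469 and 4196). Quantile normalization shifted the median of all genes by -0.12 and equal medians by -0.13 on the log2 scale, and rises made up 33.2% and 32.4% of the calls, against 45.3% as deposited. In these 2 scalings the 69 genes had 25 and 26 lower and 3 higher each. Deviations of same-numbered arrays from their group means correlated at 0.09, 0.09 and -0.04 (replicates 1, 2 and 3), and CX-4945 replicate 3 did not correlate best with its own number, so the numbers were not taken to pair the samples. With the replicate block, 19 of the 69 genes were lower, 3 higher, and 8058 of all genes were called. Signal near background limits 26 of the 69 genes.

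Genes not called changed sign in these settings, each staying without a call. With quantile normalization the log2 differences were ADCY4 -0.073, ADCY5 -0.012, PDE10A -0.12, PDE4A -0.052, PDE6A -0.036 and PRKAR1B -0.16. With equal medians they were ADCY4 -0.10, ADCY5 -0.0016, AKAP8L -0.051, PDE10A -0.062, PDE1B -0.014, PDE4A -0.020, PDE6A -0.091 and PRKAR1B -0.098. With the rows of a gene averaged they were ADCY2 -0.039, AKAP19 0.047 and PDE10A -0.38, and with array weights ADCY4 -0.079 and PDE6A -0.0024. When 1 array was left out, ranges were -0.12 to 0.13 for ADCY4, -0.042 to 0.29 for ADCY5, -0.14 to 0.034 for ADCY8, -0.43 to 0.086 for AKAP10, -0.22 to 0.071 for AKAP11, -0.075 to 0.21 for AKAP8L, -0.48 to 0.16 for PDE1A, -0.023 to 0.24 for PDE1B, -0.070 to 0.26 for PDE4A, -0.19 to 0.25 for PDE6A, -0.21 to 0.078 for PRKACG and -0.18 to 0.30 for PRKAR1B. The cause of these changes was not tested.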
